A study of Saccharomyces cerevisiae with 100 samples.

Results

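The genes described here are the kinase gene DUN1 and 7 genes of deoxynucleoside triphosphate (dNTP) supply in Saccharomyces cerevisiae. They were chosen by systematic name, as the branch that acts below Rad53 on dNTP levels. These 8 genes were RNR1 (YER070W), RNR2 (YJL026W), RNR3 (YIL066C), RNR4 (YGR180C), DUN1 (YDL101C), RFX1 (YLR176C), SML1 (YML058W) and DIF1 (YLR437C). In the 3 deposited tables, 1660 genes were listed with a single-nucleotide variant (SNV), and 5 of the 8 genes were among them, with 8 of the 3092 listed SNVs.

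Genomic DNA of 100 yeast strains was sequenced, with 1 library per strain and no replicate of any of them. All 8 SNVs came from 95 MATa strains (SUP1 to SUP131, with gaps in the numbering) of the genotype sml1∆::URA3 rad53∆::LEU2 that had been isolated as resistant to methyl methanesulfonate (MMS), a DNA-alkylating agent. Their control was YJT75, a MATa strain with the same 2 deletions. Of the other strains, S64Balpha (MAT alpha sml1∆::URA3 rad53∆::HIS3 chk1∆::LEU2 exo1∆::TRP1, a suppressor) was compared with W64Aalpha, of the same deletions. The last comparison was of YMS6 with YGDP939 (sml1∆::URA3 rad53∆::LEU2 exo1∆::HIS3). The labels of YMS6 give a W303 background and no deletion, and the study's text describes it as a rad53∆ exo1∆ strain. All strains derive from W303, a laboratory strain.

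Ribonucleotide reductase (RNR) makes the building blocks of DNA from ribonucleotides, and its activity limits the dNTP pools of a yeast cell. When DNA is damaged, Mec1 activates Rad53, and Rad53 activates the kinase Dun1. Dun1 then acts on 3 inhibitors of dNTP supply: it leads to the destruction of Sml1, which binds and inhibits the large subunit, and of Dif1, which brings the small subunits into the nucleus, and it releases the repressor Rfx1 from the promoters of RNR2, RNR3 and RNR4. Loss of Sml1 frees RNR of its inhibitor, and rad53∆ strains are kept alive in the laboratory by this deletion.

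Values are allele frequencies, the fraction of the reads over a site that show the alternative base. An SNV was counted in a suppressor from an allele frequency of 0.40 upward, the lowest value the authors kept for these strains. SNVs that change an amino acid, create or remove a stop codon or remove a start codon are called nonsilent. The tables give no read counts, so the depth behind each value is unknown. The study's Methods state a minimum allele count for calls and a median coverage over all samples, which do not give the depth at a site. SNVs are written with the reference base, the position on the chromosome in the sacCer2 assembly counted from 1, and the alternative base, all on the reference strand.

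DUN1 carried 3 missense SNVs, each in a different suppressor and each at or near fixation. DUN1 lies on chromosome IV and is named as a Crick-strand gene, so the bases written here are the complement of those in its messenger RNA. The SNV A280644T had an allele frequency of 1.0 in SUP1, T281308A of 1.0 in SUP105, and T281586C of 0.983 in SUP21. Each was listed at 0 in YJT75. The 3 SNVs spanned 942 bases, and no 2 of them fell at the same position. No nonsense, start-lost or stop-lost SNV and no synonymous SNV was listed in DUN1. With 3 of 95 suppressors, the share with a missense SNV in DUN1 was 3.16% (95% exact Clopper-Pearson interval 0.656% to 8.95%, counting error only).

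The other suppressors were at or close to 0 at the DUN1 positions, with a single exception. T281586C was listed at 0 in all other 94 suppressors, and T281308A was above 0 in 2 of them, at most at 0.0076. A280644T was also above 0 in 2 others, and the higher value was 0.0667 in SUP46, under the limit for a call. Over the 2864 SNVs found in 1 suppressor, 20 (0.698%) reached 0.0667 or more in a suppressor without a call, and the median of the highest such value was 0.005. Of the 57 SNVs found in SUP1 only, 27 were above 0 in SUP46 and 30 were listed at 0, and the DUN1 SNV was near the top of these values.

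**Figure D1:**
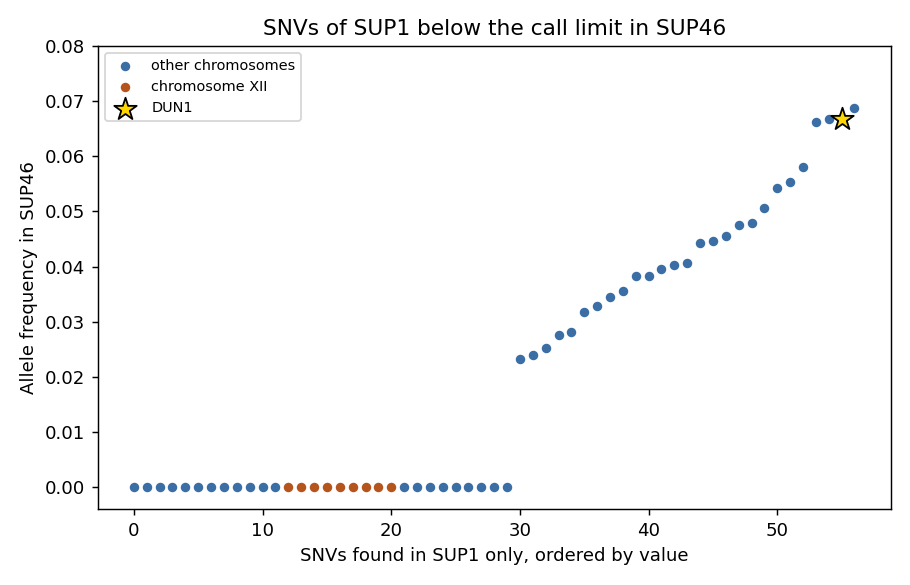
Allele frequency in SUP46 (vertical axis) of the 57 SNVs found in SUP1 only, ordered by that value (horizontal axis), with chromosome XII in orange and DUN1 as a star. The 30 values at 0 are separated from the 27 others, which begin at 0.0233, and DUN1 lies at 0.0667.

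The RNR subunits differed in what was listed. RNR3, on chromosome IX, encodes the damage-inducible form of the large subunit, which is dispensable for growth, and it carried 2 missense SNVs. T238986G had an allele frequency of 1.0 in SUP84, and G239718C had an allele frequency of 0.980 in SUP91. They lie 732 bases apart. Both were listed at 0 in YJT75, and the highest value in any of the other suppressors was 0.0061. RNR1, on chromosome V, encodes the main large subunit and is essential, and the table has no SNV in it. RNR2, on chromosome X, encodes the small subunit that holds the catalytic cofactor. It carried 1 synonymous SNV, G392988T, at an allele frequency of 1.0 in SUP54 and of 0 in the other 94 suppressors and in YJT75. RNR4, on chromosome VII, encodes the partner of Rnr2 in the small-subunit dimer, and no SNV was listed in it. A count of 0 in 95 suppressors allows a share of up to 3.16%, taken as 3 counts of 95.

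The inhibitors carried 1 missense SNV between them. DIF1, on chromosome XII, carried T1011708C at an allele frequency of 0.502 in SUP63, and RFX1, also on chromosome XII, carried the synonymous SNV A508492G at 0.496 in SUP13. Both were listed at 0 in YJT75. The highest value in any other suppressor was 0.0086 for the DIF1 SNV and 0.0034 for the RFX1 SNV. No SNV was listed in SML1, on chromosome XIII, which can yield none in the suppressors because the gene is deleted in them. RAD53, deleted too, had none listed either. The 8 genes had no SNV in the tables of YMS6 and S64Balpha.

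**Figure D2:**
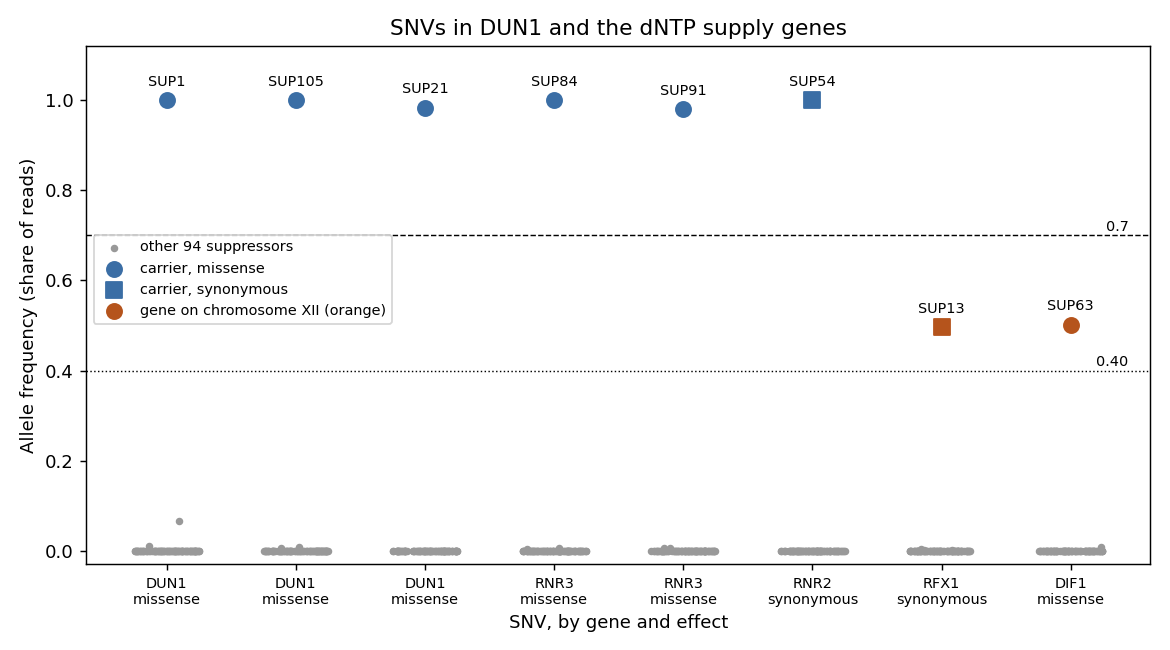
Allele frequency (vertical axis, share of reads) of the 8 SNVs in DUN1, RNR3, RNR2, RFX1 and DIF1, with 1 point per suppressor. Large symbols are the suppressors that carry the SNV (circles missense, squares synonymous, orange for genes on chromosome XII) and small grey points are the other 94. The SNVs on chromosomes IV, IX and X lie between 0.980 and 1.0, and the 2 on chromosome XII lie at 0.496 and 0.502, between the lines at 0.40 and 0.7.

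The intermediate values of DIF1 and RFX1 were shared by the other chromosome XII SNVs of the same strains, as the plot of every SNV in the 8 suppressors shows. In SUP63, the 3 SNVs on chromosome XII had allele frequencies of 0.465 to 0.505, while the 28 SNVs on the other chromosomes lay between 0.977 and 1.0. In SUP13, the 4 SNVs on chromosome XII lay between 0.454 and 0.496, and the 40 elsewhere between 0.810 and 1.0. The DIF1 and RFX1 SNVs therefore did not stand apart from their chromosome in these strains. The 5 missense SNVs in DUN1 and RNR3 likewise lay among the values of their own strains, since the median off chromosome XII was between 0.989 and 1.0 in SUP1, SUP21, SUP84, SUP91 and SUP105. SUP21, with DUN1 at 0.983, was the strain of these 5 with the widest spread off chromosome XII (0.405 to 1.0 over 34 SNVs). The value of 0.405 belonged to 1 SNV, and the next lowest was 0.844. With the limit raised to 0.7, which the study's Methods give, the count loses the DIF1 SNV and retains the other 5 missense SNVs.

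**Figure D3:**
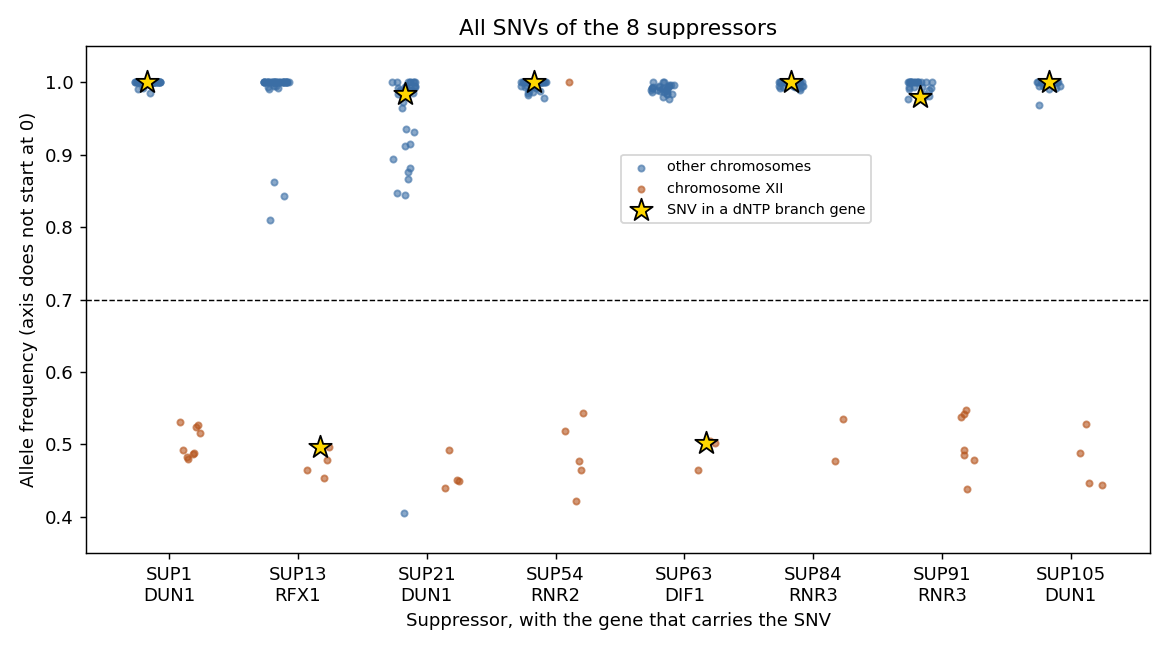
Allele frequency (vertical axis, not starting at 0) of every SNV in the 8 suppressors with an SNV in a gene of the dNTP branch, for chromosome XII (orange) and the other chromosomes (blue). Stars mark the SNV in the dNTP branch and the dashed line marks 0.7. The star lies at 0.496 in SUP13 and at 0.502 in SUP63, beside other SNVs of chromosome XII, and at 0.980 or above in the other 6 suppressors.

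Together the 8 genes carried 6 missense SNVs in 6 of the 95 suppressors (6.32%, 95% exact Clopper-Pearson interval 2.35% to 13.2%), and no suppressor carried more than 1 of them. Missense SNVs were found in 3 of the 8 genes. SML1 is counted among the 8 here, although it is deleted in the suppressors and can yield no SNV. Over all protein-coding genes, 1166 of 6021 (19.4%) carried a nonsilent SNV in some suppressor. At a minimum allele frequency of 0.7, 2 of the 8 genes and 16.5% of all protein-coding genes had one. Synonymous SNVs were found in 2 of the 8 genes, against 7.76% of all protein-coding genes. No chance test was made over these 8 genes, and differences in coding length were not taken into account.

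DUN1 and RNR3 were the genes of the branch with distinct SNVs in more than 1 strain. DUN1 was among 40 of 6021 genes (0.664%) with at least 3 distinct nonsilent SNVs in at least 3 suppressors. RNR3 was, with DUN1, among 209 genes (3.47%) with at least 2 distinct nonsilent SNVs in at least 2 suppressors. At 0.7, DUN1 was among 26 genes (0.432%) by the limit of 3, and both were among 153 genes (2.54%) by the limit of 2. These limits were set with the counts of DUN1 and RNR3 known.

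**Figure D4:**
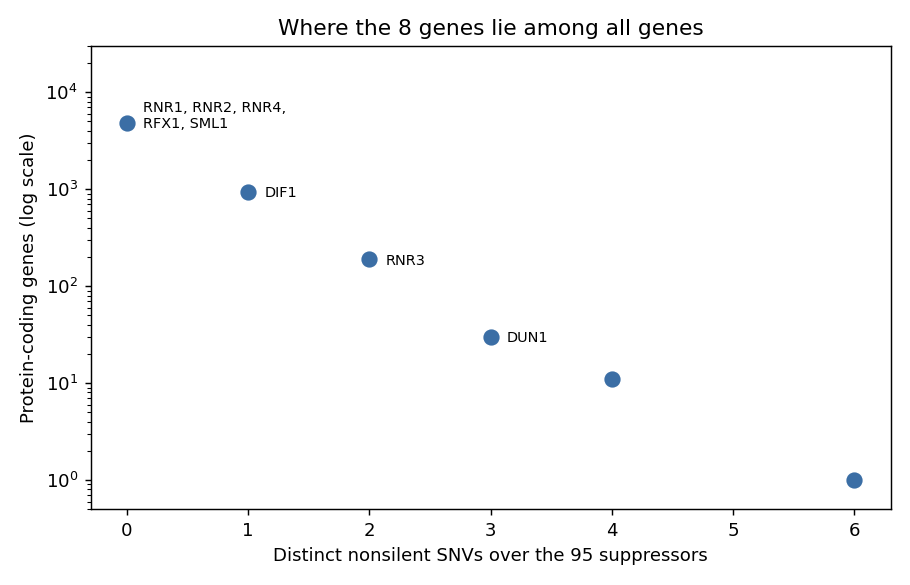
Number of protein-coding genes (vertical axis, log scale) by their number of distinct nonsilent SNVs over the 95 suppressors (horizontal axis). Names mark where the 8 genes lie: DUN1 at 3 SNVs with 30 genes in all, RNR3 at 2 with 189, DIF1 at 1 with 935, and the other 5 at 0 with 4855 genes.

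The SNVs of the branch were also set beside those of all genes by kind, without a test. Of the 8 coding SNVs, 6 were nonsilent (75%), against 1483 of 2005 distinct coding SNVs in all genes (74%). None of the 8 was a nonsense SNV, and over all genes 52 of 2005 were (2.59%, 95% exact Clopper-Pearson interval 1.94% to 3.39%). By base change, 6 of the 8 arose at T:A pairs (3 T>C, 2 T>A and 1 T>G, written on the pyrimidine), against 1018 of 2005 coding SNVs (50.8%). The other 2 were C>A in RNR2 and C>G in RNR3, and no C>T change was among the 8, against 336 of 2005 (16.8%) over all coding SNVs.

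Each suppressor with a missense SNV in the branch also carried many nonsilent SNVs in other genes. There were 27 in SUP1, 20 in SUP84, 18 in SUP21 and SUP91 each, 15 in SUP63 and 14 in SUP105. The mean was 18.7 ± 4.63 (SD, n = 6) in these 6 suppressors and 16.4 ± 6.49 (SD, n = 89) in the others. The difference was 2.22 SNVs per strain, in a 95% interval of -3.2 to 7.6 from inverting the permutation test, and did not pass it (two-sided permutation test with 100000 draws, p = 0.432, adjusted p = 0.930 over 3 tests). Each of the 6 missense SNVs was thus accompanied by 14 to 27 others. The data give no measurement of MMS resistance for any single SNV.

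**Figure D5:**
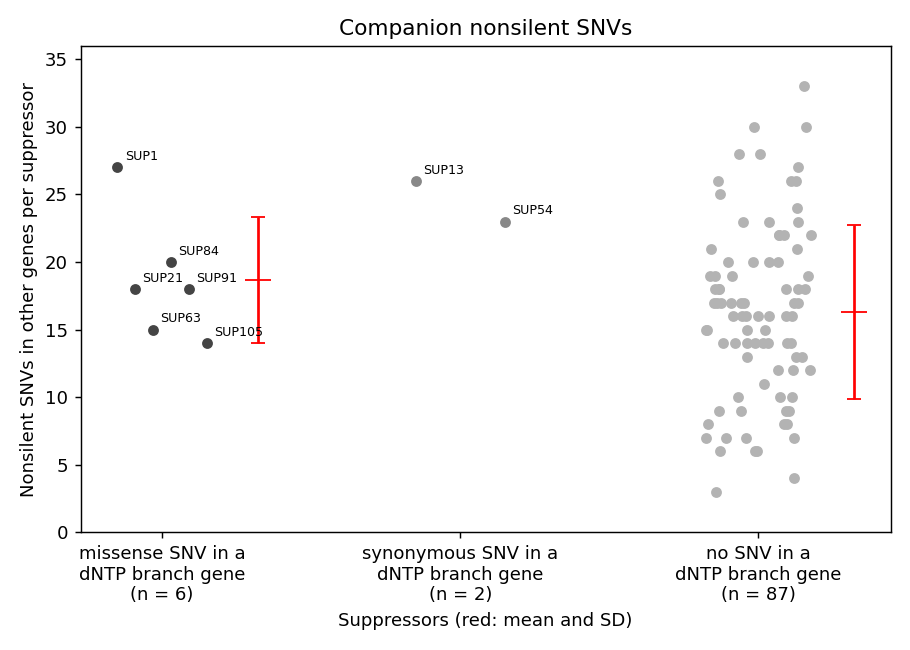
Nonsilent SNVs in genes outside the dNTP branch (vertical axis) per suppressor, for 6 suppressors with a missense SNV in the branch, 2 with a synonymous SNV and 87 with neither. Points are strains and red marks are the mean and SD. The 6 lie between 14 and 27, within the range of the 87 (3 to 33), and the test in the text sets the 6 against the other 89.

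Some of these strains also carried SNVs in pathways that the study examined. For this comparison 14 genes were used: RPH1, RPD3, SAP30, RXT2, SDS3, NMD2, UPF3, XRN1, DCP2, SIR1, SIR2, SIR3, SIR4 and ESC1. This list is narrower than the pathway definitions in the study's text, which take in further Rpd3L subunits and whole annotation terms. SUP84 (RNR3) carried a missense SNV in SIR1 (C641178A on chromosome XI, allele frequency 0.994), a gene of silencing at the mating-type loci. SUP91 (RNR3) carried a missense SNV in DCP2 (G404407C on chromosome XIV, allele frequency 1.0), which encodes the catalytic subunit of the mRNA decapping enzyme. Both suppressors with an RNR3 SNV thus had a companion of this kind. None of SUP1, SUP21 and SUP105 (DUN1) or SUP63 (DIF1) had a nonsilent SNV in the 14 pathway genes or the 32 genes tested by deletion. Outside these lists, SUP1 carried a missense SNV in JHD2, a histone demethylase gene whose deletion did not suppress in the study. It also carried missense SNVs in HDA2 and HOS3, and all 3 had an allele frequency of 1.0. These were picked from the 27 nonsilent companions of SUP1. Companions of these strains in other genes of chromatin, replication or DNA repair are not listed here. Nonsilent SNVs in the 14 genes were present in 2 of 6 suppressors with a missense SNV in the branch (33.3%, 95% exact Clopper-Pearson interval 4.33% to 77.7%) and in 20 of the other 89 (22.5%, 14.3% to 32.6%). This difference did not pass the test either (two-sided exact permutation test, p = 0.620, adjusted p = 0.930). Of the strains with a synonymous SNV, SUP13 (RFX1) carried a nonsense SNV in SIR4 (G917976T on chromosome IV, allele frequency 1.0), and SUP54 (RNR2) a missense SNV in HRB1, 1 of the genes tested by deletion.

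Nonsense SNVs accompanied the missense SNVs in 2 of the 6 suppressors (33.3%, 95% exact Clopper-Pearson interval 4.33% to 77.7%), against 40 of the other 89 (44.9%, 34.4% to 55.9%), a difference that was not tested. SUP63 carried one in ATG21 (T362651A on chromosome XVI, allele frequency 0.997), an autophagy gene. SUP91 carried 2, in RTT107 (C404520T on chromosome VIII, allele frequency 1.0), which encodes a scaffold protein needed for growth after alkylation damage, and in RGD2 (T41524A on chromosome VI, allele frequency 0.992), which encodes a GTPase-activating protein. None of the 3 suppressors with a DUN1 SNV carried a nonsense SNV. PDR3 and YJL113W, outside the branch, carried different nonsilent SNVs in more than 1 of the 6 strains. PDR3, a regulator of drug resistance genes, had missense SNVs in SUP63 and SUP105, and in 4 suppressors in all. YJL113W, a retrotransposon gene, had missense SNVs in SUP21 and SUP84. It had 3 distinct nonsilent SNVs in 11 suppressors in all, and 9 of these, SUP21 among them, shared the same SNV, G200629C. A missense SNV in WTM2 (T768551G on chromosome XV, allele frequency 1.0), a gene related to the RNR regulator WTM1, was present in SUP1 beside DUN1 and was singled out after its value was seen.

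The strains with missense SNVs in the branch came from both sets into which shared SNVs divide the suppressors. A missense SNV in GUD1 was present in SUP84, SUP91 and SUP105, 3 of the 6 (50.0%), and in 46 of the other 89 suppressors (51.7%), which does not pass a test of the difference (two-sided exact permutation test, p = 1, adjusted p = 1). For DUN1 it was present in SUP105 and absent from SUP1 and SUP21, and for RNR3 it was present in both strains. SUP84, SUP91 and SUP105 shared 3 SNVs, which 49 suppressors carry, and no other SNV was shared between any of the 8 suppressors with an SNV in the branch. Smaller sets of shared SNVs reached outside the 8. SUP21 (DUN1) carried a missense SNV in IRA1 that 9 suppressors had, and SUP84 (RNR3) carried one in YKR005C that 6 had.

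A wider list of 28 genes around the branch held the kinases above Dun1, regulators of RNR transcription and location, the suppliers of electrons and iron to RNR, and enzymes of dTMP synthesis and nucleotide phosphorylation. Of these 28 genes, 6 (21.4%) carried a nonsilent SNV, against 19.4% of all protein-coding genes. The 7 nonsilent SNVs were missense, in 7 suppressors, and none of these suppressors had an SNV in DUN1 or another of the 8 genes. Only 8 of all 95 suppressors had one, so nothing is read from this lack of overlap. It also depends on the list, which holds WTM1 and not WTM2, where SUP1 (DUN1) carried a missense SNV. MEC1, the kinase at the top of the checkpoint, carried 2 of the 7 SNVs, G508347T in SUP30 (allele frequency 1.0) and A508993G in SUP75 (0.994). The genes of RNR transcription carried 4: TUP1, the corepressor that Rfx1 recruits (SUP111, allele frequency 1.0), CRT10 (SUP90, 0.973), IXR1 (SUP106, 1.0) and MBP1 (SUP116, 1.0). TRR1, a thioredoxin reductase, carried the remaining one (SUP38, 0.995). No SNV was listed in the genes of dTMP synthesis and nucleotide phosphorylation, such as CDC21 and CDC8, and DRE2, an iron-sulphur protein, carried 1 synonymous SNV in SUP104.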

How the data were processed

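Genomic DNA was sequenced by the authors as paired-end reads, aligned to sacCer2 with Novoalign 2.07.14 and, for the longer reads, freed of duplicates with Picard 1.81 (versions from the submitters' processing notes). Bases were counted with deepSNV, and SNVs were called jointly within each of 3 experiments and annotated with snpEff. Candidates with 0.1 or above in the control strain were discarded, and those of at least 0.40 in a suppressor, or 0.25 in YMS6 or S64Balpha, were kept. The deposited tables hold allele frequencies, and 10 stands where the value is 1.0, so these cells were read as 1. They name 1 overlapping gene per SNV. No column was left unassigned. Identifiers were matched to the R64 table of RefSeq for names and for the 6021 protein-coding genes (1506 of 1632 identifiers of the suppressors' table matched), and no R64 position was used.

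The 8 genes, the wider list and the tests were chosen with earlier results of these data known. The minimum of 0.40 was used here for counts because 0.7 removes most SNVs of chromosome XII, where RFX1 and DIF1 lie. The genes named are the 8, genes of the wider list with a nonsilent SNV, and in suppressors with a missense SNV in the branch the companions that were nonsense, start-lost or stop-lost, in the 14 pathway genes or the genes tested by deletion, or in a gene shared by 2 or more of these suppressors. WTM2, DRE2, JHD2, HDA2, HOS3, IRA1, YKR005C and the companions of SUP13 and SUP54 (SIR4 and HRB1) fall outside this rule. They were named after their values were seen. Strains were the unit of every test, so a p-value gives how often a relabelling of the strains yields a difference at least as extreme. Each strain is 1 library, so differences between strains cannot be told apart from differences between libraries. Not all strains are independent, which the tests and intervals do not take into account. Of the 23 SNVs of SUP118 only 1 was found in no other suppressor, and of the 28 of SUP119 only 6. Both carried a nonsilent SNV in XRN1 and were counted as separate strains. The permutation code was tested on simulated data. P-values were adjusted by the Benjamini-Hochberg method. No sequence context is shown because no sacCer2 genome was used here. The analysis ran in Python 3.11.15 with pandas 2.3.3 and numpy 2.4.6, permutation tests and intervals used scipy 1.17.1, and plots were drawn with matplotlib 3.10.9.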

Additional observations from a re-analysis of the deposited data

Results flagged for a closer look

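The 3 SNVs described first lie outside annotated genes, with a gene of the dNTP branch as a listed neighbour, and each was listed at 0 in YJT75. They are in data that the counts above do not use. Calls outside annotated genes were common in the suppressors, at 832 when an SNV is counted in each suppressor that carried it. The share of all genes with such an SNV as a neighbour was not computed. Whether the genes of the branch have more of them than other genes was therefore not tested. A240850G on chromosome IX, at an allele frequency of 1.0 in SUP61, lies between RNR3 and YIL065C at a higher coordinate than the SNVs inside RNR3. Since RNR3 is a Crick-strand gene, this is its 5′ side. G1012039C on chromosome XII, at 0.446 in SUP3, lies in the same way on the 5′ side of DIF1. A507694G on chromosome XII, at 0.992 in SUP20, lies at a lower coordinate than the SNV inside RFX1, on the 3′ side of that gene. It was the highest of the 5 SNVs of SUP20 on chromosome XII, whose median was 0.476. In SUP3, the 12 SNVs on that chromosome lay between 0.44 and 0.512. Expression of these genes was not analysed here.

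The DUN1 SNV A280644T of SUP1 was listed at 0.0667 in SUP46, under the limit for a call and above the 0 of YJT75. It was not alone. Of the 57 SNVs found in SUP1 only, 27 were above 0 in SUP46, with values between 0.0233 and 0.0688 (median 0.0406), and the other 30 were listed at 0, as the plot of these values shows. All 9 of those on chromosome XII were among the 30. The SNVs of SUP1 lay on 15 chromosomes: on 4 of these every SNV was above 0 in SUP46, on 3 none was, and on 8 both kinds occurred. In no other of the remaining 93 suppressors were more than 4 of the 57 above 0. Among the other suppressors with an SNV in the branch, SUP63 (DIF1) had 11 of its 31 private SNVs above 0 in SUP53, at most at 0.0133, and for each of the other 6 no suppressor had more than 4. The SNVs called in SUP46 itself had a median allele frequency of 0.958 off chromosome XII, at most 0.986. Where these reads come from was not tested.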

How the results depend on the processing

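Of 19 alternatives over 5 results, 17 kept the direction and the side of the threshold, or a count close to it. For the counts of missense SNVs in the branch, part of this was fixed in advance. Each of these SNVs was found in 1 suppressor, was listed at 0 in YJT75 and was not a splice-site SNV. Alternatives that turn on these features could not change the counts. The number of suppressors with a missense SNV in the branch was 6, and 5 at a minimum allele frequency of 0.7 or 0.9 or without chromosome XII, where DIF1 drops out. Joining the 32 genes tested by deletion to the 14 pathway genes turned the difference in shares to -17.2 percentage points (2 of 6 suppressors with a missense SNV in the branch, 45 of the other 89, two-sided exact permutation test, p = 0.677), where the 14 genes alone gave 10.9, and 21.1 at 0.7 (2 of 5 against 17 of 90, two-sided exact permutation test, p = 0.260). The difference in the share with the GUD1 SNV was -1.69 percentage points and became 8.89 at 0.7 (two-sided exact permutation test, p = 1), an alternative chosen after seeing the data, as were those that count synonymous SNVs. Neither difference passed the test in any alternative. At 0.7, 26 genes had 3 or more distinct nonsilent SNVs in as many suppressors, DUN1 among them, against 40 at 0.40. SNVs per coding length were planned and not run, since no sacCer2 coding lengths were used here. No paired analysis was possible because each strain has 1 library and the numbers in the labels name strains. Depth per SNV is unknown, and 6 strains limit what the tests can detect.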
